A study of Bos taurus and other sequences with 9 samples.

Results

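The tRNA loci for valine were examined in the small non-coding RNA (small ncRNA) of culture media. Members were all rows of the deposited tables that are of type tRNA and carry Val in the locus name. The rule gave 31 loci of 530 tRNA loci and of 1361 loci of small ncRNA other than miRNA. By anticodon, 11 loci were AAC, 15 were CAC and 5 were TAC.

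The study sequenced 9 libraries from 5 media, made of RNA isolated with the exoRNeasy kit for extracellular vesicles (EVs). It did not show that the RNA was bound to EVs, and considers it more likely that EV-bound and cell-free RNA were both present. FBS was DMEM/F12 medium with untreated fetal bovine serum. UC-dFBS was the same medium with serum depleted of EVs by ultracentrifugation, UF-dFBS with serum that had passed an ultrafiltration device, and SBI-dFBS with a commercial EV-depleted serum from System Biosciences. Each of these 4 media had 2 samples. In FBS, UC-dFBS and UF-dFBS the sample numbered 1 was made from serum of Sigma-Aldrich and the sample numbered 2 from serum of Gibco, 1 lot each (the media list of the study gives both the same catalogue reference), while SBI-dFBS-1 and SBI-dFBS-2 were separate lots. StemPRO, a serum-free medium for mesenchymal stem cells, had 1 sample and was not tested. The media were sequenced as such, without cells. The SD between samples of a medium therefore holds the difference between sera or lots as well as that between preparations, and the 2 sera cannot be told apart from the 2 lots they came in.

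tRNA-Val carries valine to the ribosome. Its genes fall into isoacceptors that read different valine codons: CAC pairs with GUG, TAC reads GUA, and the first base of AAC is modified to inosine, which lets it read several codons. Each isoacceptor is encoded by many gene copies, many of which are nearly or wholly identical. Cleaved tRNAs, called tRNA fragments, are abundant in serum and other body fluids. The reads come from bovine serum but were assigned to human loci (GRCh37), so that a locus name here stands for the human tRNA gene a read was placed on. The rule for reads that match several tRNA genes equally well is not given in the sources used here. Values are given as counts and as spike-in normalized counts, which are counts divided by a factor per sample from external spike-ins. All levels below are spike-in normalized counts unless counts are named.

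Total counts over all miRNAs and other small ncRNAs were between 82513 and 6867736 in the FBS-based samples and 6679 in StemPRO. Within them, tRNA-Val had 205923 counts in FBS-1, 4464 in FBS-2, 437969 in SBI-dFBS-1, 375932 in SBI-dFBS-2, 179197 in UC-dFBS-1, 22501 in UC-dFBS-2, 983 in UF-dFBS-2 and 1894010 in UF-dFBS-1. StemPRO had 425. The values of UF-dFBS-2 and StemPRO are thus the least precise. A floor of 3 counts corresponded to between 0.0278 and 0.794 spike-in normalized counts, depending on the sample. All intervals and floors given here hold the counting error and no other.

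The loci lie mostly in groups on a few chromosomes. Chromosome 6 held 11 of the 31 loci between 26538282 and 28703277 (5 AAC, 5 CAC and 1 TAC), and chromosome 5 held 8 between 180524070 and 180649467 (4 AAC and 4 CAC). Chromosome 1 held 6 loci (1 AAC and 5 CAC), and chromosome 11 held 2 TAC loci between 59318102 and 59318532. Chromosomes 3, 10, 19 and X held 1 locus each. All are annotated in the deposited table as tRNA genes, with lengths of 71 to 74 bases. No Val locus was without a count in all samples, and no pair of Val loci had identical counts in every sample.

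AAC and CAC dominated tRNA-Val in all 8 FBS-based samples, at nearly the same level, while TAC was lower and varied more. The AAC total was 16978 in FBS-1, 253 in FBS-2, 21330 in SBI-dFBS-1, 38410 in SBI-dFBS-2, 11271 in UC-dFBS-1, 1393 in UC-dFBS-2, 15632 in UF-dFBS-1 and 17.8 in UF-dFBS-2. The CAC total was 18629, 282, 23886, 42101, 12574, 1569, 17541 and 19.9 in the same order. The TAC total was 6904, 63.9, 3209, 19013, 3568, 336, 1120 and 3.21. In every FBS-based sample the order was CAC, AAC, TAC. SBI-dFBS-2 was highest and UF-dFBS-2 lowest for each anticodon, and the samples from the Gibco serum lay below all others.

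**Figure D1:**
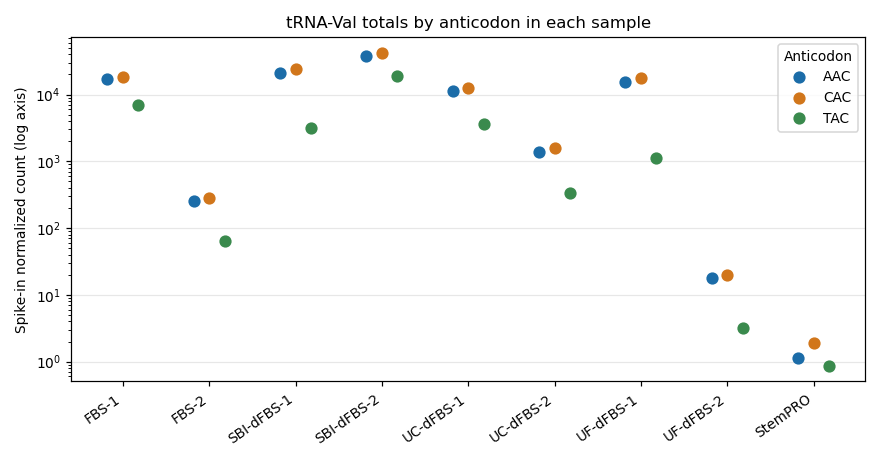
Spike-in normalized total of the tRNA-Val loci of each anticodon (log axis) in each of the 9 samples; each point is 1 sample. AAC and CAC points nearly coincide in the 8 FBS-based samples, TAC lies below them, and the 3 Gibco samples (UF-dFBS-2, UC-dFBS-2 and FBS-2) lie below the other FBS-based samples.

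The log2 ratio of the CAC to the AAC total was 0.16 ± 0.015 (SD, n = 8 samples), between 0.13 and 0.17. It was above 0 in 8 of 8 samples (exact sign-flip permutation test, two-sided, p = 0.0078, adjusted over the 3 anticodon pairs 0.0078, the smallest p that 8 samples allow). The direction held for totals only. A total grows with the number of loci summed, 15 for CAC and 11 for AAC. The test therefore does not compare the anticodons locus for locus. The 15 near-equal loci described below, which hold most of the Val counts, are 8 CAC and 7 AAC loci. Dividing each total by its number of loci shifts the ratio of every sample alike, and loci of few reads count in full. By this mean per locus CAC lay below AAC (mean log2 ratio -0.29, exact permutation test, adjusted p = 0.023). That value depends on how many such loci are annotated and does not show that CAC loci are lower. Within the 15 loci the ratio of CAC to AAC per locus was 0.95 to 1.00. The highest CAC locus differed from the highest AAC locus by -0.02 (exact permutation test, adjusted p = 0.094). The 8 samples include 3 from each of 2 sera, so that they are not 8 independent sera.

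TAC lay below AAC by a log2 ratio of -2.13 ± 0.88 (SD, n = 8) and below CAC by -2.28 ± 0.89, again in 8 of 8 samples (exact sign-flip permutation test, two-sided, adjusted p = 0.0078 for each). There were 5 TAC loci against 11 and 15. By the mean per locus, TAC still lay below AAC (log2 ratio -0.99, exact permutation test, adjusted p = 0.023), while the ratio to CAC was -0.70 and missed the threshold (exact permutation test, adjusted p = 0.055). These values too depend on how many loci of few reads are annotated. By the highest locus the direction turned, as the highest TAC locus lay above the highest AAC locus by 0.28 and above the highest CAC locus by 0.30, neither past the threshold (adjusted p = 0.46 for each). TAC took 16.2% of the Val counts in FBS-1, 10.7% in FBS-2, 6.63% in SBI-dFBS-1, 19.1% in SBI-dFBS-2, 13.0% in UC-dFBS-1, 10.2% in UC-dFBS-2, 3.26% in UF-dFBS-1 and 7.83% in UF-dFBS-2. The share was thus lowest in UF-dFBS-1 and highest in SBI-dFBS-2, and it differed nearly as much between the lots of SBI-dFBS as over all FBS-based samples.

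A set of 15 loci carried most of the AAC and CAC reads, and its members were nearly equal to each other within each library. It was formed after the values had been seen, from the AAC and CAC loci with a mean above 1000 over the 8 FBS-based samples, and holds 7 AAC and 8 CAC loci, 7 of them on chromosome 5, 4 on chromosome 6, 3 on chromosome 1 and 1 on chromosome 3. Its highest AAC loci by mean were tRNA4-ValAAC (1892), tRNA5-ValAAC (1817) and tRNA12-ValAAC (1794). Its highest CAC loci were tRNA9-ValCAC (1850), tRNA6-ValCAC (1828) and tRNA18-ValCAC (1826). The others were tRNA2-ValCAC, tRNA136-ValAAC, tRNA2-ValAAC, tRNA139-ValAAC, tRNA98-ValCAC, tRNA85-ValCAC, tRNA132-ValAAC, tRNA10-ValCAC and tRNA90-ValCAC. The lowest member by mean was tRNA90-ValCAC at 1684 and the first locus outside was tRNA37-ValAAC at 316, so that no locus lay near the limit. In FBS-1 the 15 loci had between 10213 and 11629 counts, in FBS-2 between 224 and 286, in UF-dFBS-1 between 113354 and 125455, in UF-dFBS-2 between 45 and 75, and in StemPRO between 8 and 19. The coefficient of variation among the 15 loci was 3.48% in FBS-1, where counting error alone gives 0.961%, and 2.97% in UF-dFBS-1, where it gives 0.287%. In FBS-2 it was 6.94% against 6.36%, in UF-dFBS-2 17.9% against 13.1%, and in StemPRO 21.8% against 27.5%. The spread among the loci was thus well above the counting error in FBS-1 and UF-dFBS-1, closer to it in FBS-2 and UF-dFBS-2, and below it in StemPRO. As the placing of reads that match several tRNA genes is not known, the 15 loci cannot be read as 15 separate measurements, and counts of loci are given below also without them. Some loci outside the set had close counts too. tRNA4-ValTAC and tRNA17-ValTAC had 1954 and 2006 in FBS-1 and 5098 and 4865 in UF-dFBS-1. tRNA37-ValAAC, tRNA15-ValAAC and tRNA133-ValCAC had 3210, 3171 and 3053 in FBS-1, but 2594, 2769 and 609 in UF-dFBS-1. Counts of loci without the 15 are therefore no counts of separate measurements either.

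The small differences among the 15 loci recurred between libraries. Over the 6 libraries with more than 1000 counts per locus, tRNA4-ValAAC (chr5:180591154-180591226) was above the mean of the set in 6 of 6, by a mean ratio of 1.06 (range 1.03 to 1.07). tRNA9-ValCAC (chr6:26538282-26538354) and tRNA6-ValCAC (chr5:180600650-180600722) were above it in 6 of 6 as well, with mean ratios of 1.04 and 1.03. tRNA90-ValCAC (chr1:149684088-149684161), which at 74 bases is the longest of the Val loci, was below it in 6 of 6 with a mean ratio of 0.945. Members of either anticodon stood on both sides of the mean. The per-locus ratio of CAC to AAC within the set was 0.95 to 1.00 in the FBS-based samples and 1.13 in StemPRO, where the counts per locus were at most 19. The set holds 1.14 CAC loci for each AAC locus. It made up between 76.5% (SBI-dFBS-2) and 96.0% (UF-dFBS-1) of the Val counts of FBS-based samples and 46.8% in StemPRO.

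The highest Val locus by mean was a TAC locus, tRNA16-ValTAC on the minus strand at chr11:59318460-59318532. Its level was 5889 in FBS-1, 48.8 in FBS-2, 2362 in SBI-dFBS-1, 16827 in SBI-dFBS-2, 2939 in UC-dFBS-1, 290 in UC-dFBS-2, 2.16 in UF-dFBS-2 and 832 in UF-dFBS-1, with 0.259 in StemPRO. Relative to the mean of the 15 high loci in the same library, which does not depend on the spike-ins, it was 2.63 in FBS-1, 1.47 in FBS-2, 0.792 in SBI-dFBS-1, 3.31 in SBI-dFBS-2, 1.92 in UC-dFBS-1, 1.51 in UC-dFBS-2, 0.899 in UF-dFBS-2 and 0.379 in UF-dFBS-1, with 2.11 in StemPRO. It was above each of the 15 loci in both FBS samples, both UC-dFBS samples and SBI-dFBS-2, and below each of them in UF-dFBS-1 and SBI-dFBS-1. In UF-dFBS-2, with 52 counts, it lay within their range of 45 to 75. The other TAC loci were lower: tRNA4-ValTAC (chrX:18693029-18693101) had a mean of 254 over the 8 FBS-based samples and tRNA17-ValTAC (chr11:59318102-59318174), which lies beside tRNA16-ValTAC, a mean of 248.

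Among the remaining loci, tRNA37-ValAAC (mean 316), tRNA15-ValAAC (308) and tRNA133-ValCAC (291) were the next most abundant, about as high as the lower TAC loci. Means were 75.9 for tRNA13-ValCAC, 70.2 for tRNA40-ValTAC and 56.1 for tRNA6-ValTAC, and between 1.27 and 14.2 for tRNA152-ValCAC, tRNA157-ValCAC, tRNA99-ValCAC and tRNA115-ValAAC. The last 3 loci had few reads in all 9 samples together, 20 counts for tRNA32-ValCAC (14 of them in StemPRO), 7 for tRNA130-ValCAC and 3 for tRNA63-ValAAC. SDs over the 8 samples were about as large as the means or larger. For tRNA16-ValTAC the mean was 3649 ± 5686 and for tRNA4-ValAAC 1892 ± 1875 (SD, n = 8). These SDs hold the differences between sera and media and do not measure how the loci differ within a library.

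**Figure D2:**
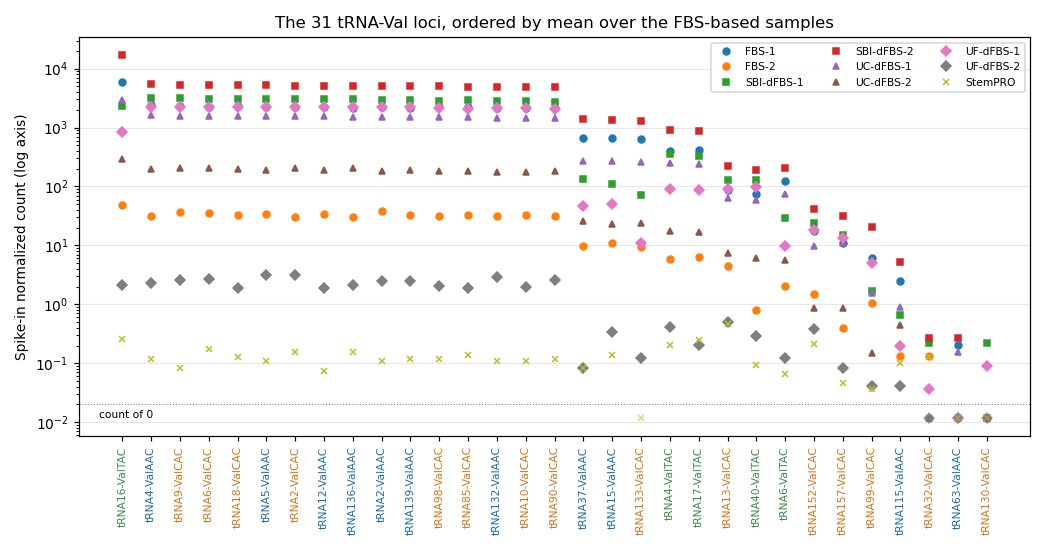
Spike-in normalized count (log axis) of each of the 31 tRNA-Val loci in each sample, in descending order of the mean over the 8 FBS-based samples; label colours give the anticodon, and points below the dotted line are counts of 0. The 15 high AAC and CAC loci form a level row in each sample, after tRNA16-ValTAC and before tRNA37-ValAAC at a mean of 316.

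tRNA-Val was higher in the Sigma than in the Gibco serum in each of the 3 media made from them. With the Sigma serum the Val total was 34292 in UF-dFBS-1, 27413 in UC-dFBS-1 and 42511 in FBS-1. With the Gibco serum it was 40.9 in UF-dFBS-2, 3298 in UC-dFBS-2 and 599 in FBS-2. The groups did not overlap, and the log2 difference was 6.31 (exact permutation test, two-sided, 3 against 3, p = 0.1, the smallest it allows). The ratio of Sigma to Gibco was 71.0 in FBS, 8.31 in UC-dFBS and 838 in UF-dFBS, where all other tRNA together had 11.8, 4.01 and 27.0. Between media, the levels from the Sigma serum lay close together and those from the Gibco serum far apart.

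By locus, 27 of 27 Val loci tested (the 3 lowest loci and tRNA115-ValAAC did not pass the filter on low counts) were higher in the Sigma serum, where 62.1% of all 280 loci tested were called in that direction (edgeR quasi-likelihood test with the medium as a term, adjusted p threshold 0.05). Log2 differences of the Val loci lay between 4.01 and 6.44 with a median of 6.14. The median was 3.13 over all 280 loci and 5.52 over the 10 tRNA-His loci tested, of which 10 were called higher. Outside the 15 high loci, 12 of 12 Val loci were called, with a median of 5.42. The largest were tRNA16-ValTAC at 6.44 ± 2.36 (SE, edgeR adjusted p = 0.018), tRNA4-ValAAC at 6.33 ± 2.37 (0.021), tRNA98-ValCAC at 6.28 ± 2.35 (0.021), tRNA18-ValCAC at 6.27 ± 2.37 (0.021) and tRNA136-ValAAC at 6.27 ± 2.38 (0.021). SEs were largest for the abundant loci and smallest for low ones such as tRNA152-ValCAC (4.21 ± 0.77, edgeR adjusted p = 1.2e-05). In 26 of 27 loci no Sigma sample overlapped a Gibco sample, against 44.3% of all loci tested. The exception was tRNA133-ValCAC, with 11.0 in UF-dFBS-1, 261 in UC-dFBS-1 and 630 in FBS-1 against 0.125 in UF-dFBS-2, 23.7 in UC-dFBS-2 and 9.39 in FBS-2, where UF-dFBS-1 fell below UC-dFBS-2.

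These calls depended on the scaling and on single libraries. With TMM scaling, which centres the typical locus, 2 of 27 were called (tRNA17-ValTAC and tRNA40-ValTAC), where 6.79% of all loci were called higher and 23.2% lower. Without FBS-1 there was 1 call among 25 Val loci (10 of all 192 loci tested), without FBS-2 there were 3 of 27 (74 of 257) and without UC-dFBS-1 there were 8 of 25 (81 of 208). The median log2 difference of the Val loci was 6.28, 6.25 and 7.82 in these fits. With no medium term in the fit there were 0 of 27 calls by edgeR (26 of 27 at an unadjusted p under 0.05, and 0 of all 280 loci). DESeq2 on the spike-in scale called 27 of 27 (225 of all 280). The Gibco libraries were also the shallower ones of each medium, with 603780, 912341 and 82513 counts in all.

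The share of Val in all tRNA counts, which needs no spike-in, was 5.43% in FBS-1, 0.946% in FBS-2, 10.2% in SBI-dFBS-1, 6.37% in SBI-dFBS-2, 5.15% in UC-dFBS-1, 2.55% in UC-dFBS-2, 1.22% in UF-dFBS-2 and 27.7% in UF-dFBS-1, with 9.26% in StemPRO. Wilson 95% confidence intervals were narrow except in the shallow libraries, 1.15 to 1.30% in UF-dFBS-2 and 8.45 to 10.1% in StemPRO. The 3 Gibco samples were the lowest of the 9, and UF-dFBS-1 stood far above the others. The log2 ratio of Val to other tRNA counts was higher in Sigma than in Gibco samples by 2.86 (exact permutation test, two-sided, p = 0.1, the smallest possible), with no overlap. Ranked by counts among 21 amino acid groups, Val was in place 2 in UF-dFBS-1, 6 in FBS-2 and between 3 and 5 in the others.

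**Figure D3:**
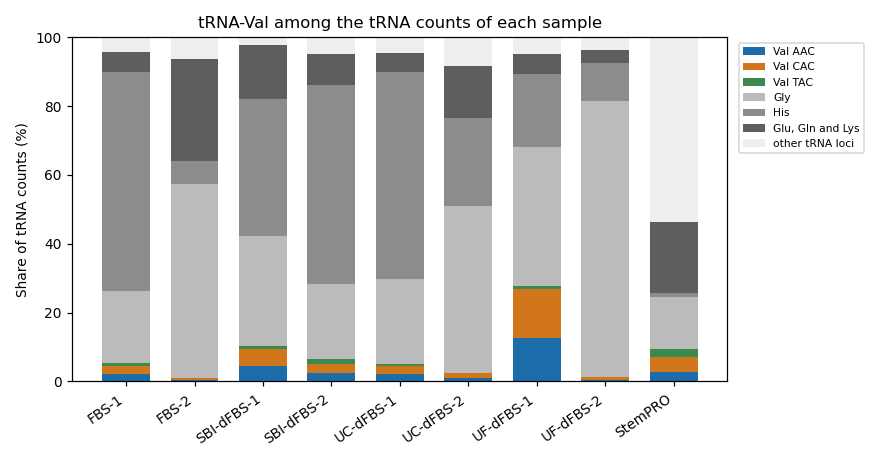
Share of tRNA counts (%) per sample, as stacked bars for the 3 Val anticodons, tRNA-Gly, tRNA-His, tRNA-Glu, Gln and Lys together, and all other tRNA loci. Val takes 27.7% in UF-dFBS-1 and between 0.946% and 10.2% in the other 8 samples.

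Ultrafiltration left Val high in the Sigma serum and low in the Gibco serum. The UF-dFBS to FBS ratio of the Val total was 0.807 in the Sigma and 0.0683 in the Gibco serum, where all other tRNA together had 0.121 and 0.0527 and miRNA had 0.00181 and 0.00234. tRNA-Gly had 0.308 and 0.0749, tRNA-His 0.0524 and 0.0901, and tRNA-Glu, Gln and Lys together 0.159 and 0.00654. Val thus lay above each of these in the Sigma serum, and below tRNA-Gly and tRNA-His in the Gibco serum. In the Sigma serum AAC kept 0.921 and CAC 0.942 of the FBS level while TAC kept 0.162. In the Gibco serum AAC kept 0.0702, CAC 0.0708 and TAC 0.0502. In each serum TAC had the lowest ratio of the 3 anticodons, and the distance was large only in the Sigma serum. The log2 difference of the Val total between UF-dFBS and FBS was -2.09 (exact permutation test, two-sided, p = 0.667), and between UF-dFBS and the other 6 FBS-based samples -3.66 (exact permutation test, two-sided, p = 0.286, smallest possible 0.0714), both within the spread of the samples. Neither direction was stable. The first was 1.56 as a ratio to other tRNA, 1.56 as a share of all counts, 0.51 in raw counts, 0.98 without FBS-1 and 2.76 without UF-dFBS-2, and the second was 0.60 as a share of all counts and 1.20 without UF-dFBS-2. The log2 TAC to AAC ratio was -3.80 and -2.47 in UF-dFBS against -1.30 and -1.99 in FBS, which did not overlap (difference -1.49, exact permutation test, two-sided, p = 0.333, the smallest possible), but SBI-dFBS-1 at -2.73 lay between the UF-dFBS samples.

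Locus by locus, the Sigma serum split the Val loci into a group that stayed near the FBS level and a group that did not, and the split crossed the anticodons. Of 31 loci, 28 passed the filter on low counts (all but tRNA32-ValCAC, tRNA63-ValAAC and tRNA130-ValCAC), and 20 of them had a UF-dFBS-1 to FBS-1 ratio above 0.5, where 19.5% of all loci with counts in both and 13.5% of other tRNA loci did. The limit of 0.5 was set after the values had been seen. The spike-in factor was 55.2 in UF-dFBS-1 and 4.84 in FBS-1, and it sets the level of these ratios but not their spread among loci. The lowest ratio above it was 0.824 (tRNA99-ValCAC, 30 counts in FBS-1) and the highest below it was 0.229 (tRNA4-ValTAC). Without the 15 high loci it was 5 of 13. The 20 loci were the 15 high loci, between 0.940 and 1.03, and tRNA40-ValTAC at 1.29, tRNA157-ValCAC at 1.22, tRNA13-ValCAC at 1.04, tRNA152-ValCAC at 1.03 and tRNA99-ValCAC. The 8 others were 4 TAC loci (tRNA16-ValTAC at 0.141, tRNA17-ValTAC at 0.213, tRNA6-ValTAC at 0.0800 and tRNA4-ValTAC), 3 AAC loci (tRNA37-ValAAC at 0.0709, tRNA15-ValAAC at 0.0766 and tRNA115-ValAAC at 0.0804, the last with 11 and 12 counts) and tRNA133-ValCAC at 0.0175. The median of the other 268 tRNA loci tested was 0.0914, near that of these 8 loci (0.0802).

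tRNA40-ValTAC and tRNA133-ValCAC showed the split most plainly, as each departed from its own anticodon. tRNA40-ValTAC (chr6:27258405-27258477) had 75.4 in FBS-1 and 97.6 in UF-dFBS-1, and 0.805 in FBS-2 and 0.291 in UF-dFBS-2, a Gibco ratio of 0.362 with a counting interval of 0.104 to 1.30 from 6 and 7 counts. tRNA133-ValCAC (chr6:27696327-27696399) had 630 in FBS-1 and 11.0 in UF-dFBS-1, and 70 and 3 counts in FBS-2 and UF-dFBS-2, a Gibco ratio of 0.0133 with a counting interval of 0.00268 to 0.0405. Among loci with at least 10 counts in all 4 samples, those that departed most from the total of their anticodon by the mean size of the departure over both sera were tRNA4-ValTAC (log2 departures of 0.50 and 0.52 in Sigma and Gibco), tRNA13-ValCAC (0.15 and 0.63) and tRNA2-ValCAC (0.07 and 0.53), the last mainly in the Gibco serum.

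**Figure D4:**
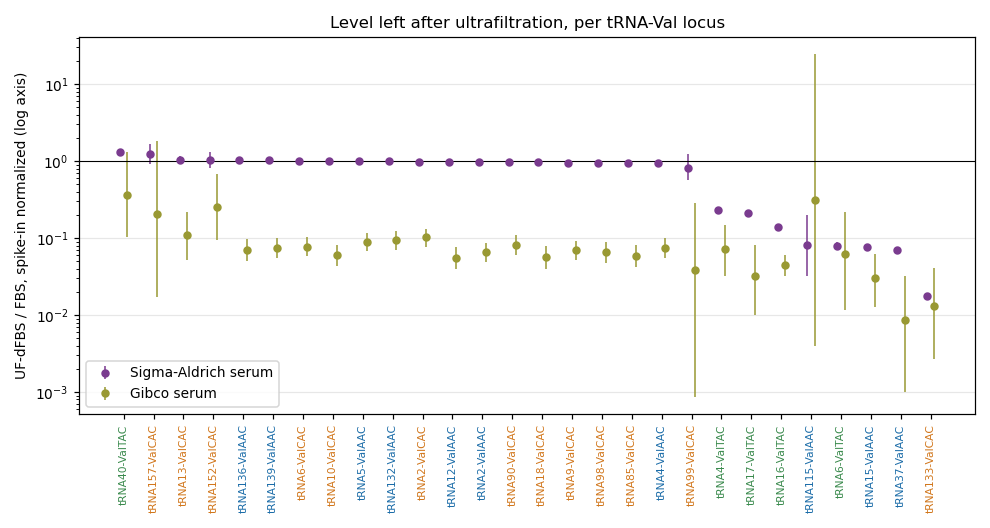
Ratio of the spike-in normalized count in UF-dFBS to that in FBS (log axis) for 28 tRNA-Val loci, in the Sigma-Aldrich and the Gibco serum; bars are 95% counting intervals and label colours give the anticodon. In the Sigma serum 20 loci lie between 0.824 and 1.29 and 8 at or below 0.229; in the Gibco serum all loci lie below 0.5, with wide intervals for those of few counts.

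The other serum and the commercial lots, which had no part in that division, were then set beside it. Between the 2 lots of SBI-dFBS, the ratio of SBI-dFBS-1 to SBI-dFBS-2 had a median of 0.588 over the 20 loci and of 0.133 over the 8, against 0.254 over the other tRNA loci. The 15 high loci lay between 0.568 and 0.608 and the 8 loci between 0.0539 (tRNA133-ValCAC) and 0.391 (tRNA4-ValTAC). The exceptions among the 20 were tRNA99-ValCAC at 0.0814, with 15 and 77 counts, and tRNA157-ValCAC at 0.466. All 8 loci thus lay below the 15 high loci, and so did most other tRNA loci. Of the other tRNA loci, 56 of 261 with counts in both lots had a ratio above 0.5. Among the 8, tRNA4-ValTAC and tRNA17-ValTAC (0.376) lay above the median of the other tRNA loci. In the Gibco serum the UF-dFBS to FBS ratio had a median of 0.0745 over the 20 loci and of 0.0383 over the 8, with overlapping ranges (0.0388 to 0.362 and 0.00850 to 0.310), and 7 of the 8 loci had at most 10 counts in UF-dFBS-2. The lots share no serum with the other samples as far as the labels state, and no test was made of a division formed on these loci.

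**Figure D5:**
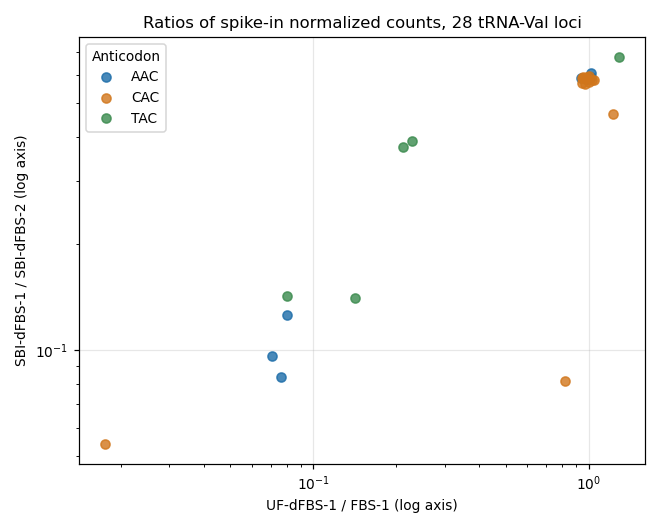
Ratio of UF-dFBS-1 to FBS-1 (x, log axis) against the ratio of SBI-dFBS-1 to SBI-dFBS-2 (y, log axis) for 28 tRNA-Val loci, coloured by anticodon; each point is 1 locus. The 15 high AAC and CAC loci overlap at about 1 and 0.588, tRNA133-ValCAC lies lowest on both axes (0.0175 and 0.0539), and tRNA99-ValCAC (0.824 and 0.0814, few counts) lies apart.

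No Val locus passed the edgeR test between UF-dFBS and FBS when the serum was left out of the fit, where 0% of 363 loci did (0 of 28 Val loci at an unadjusted p under 0.05). DESeq2 on the spike-in scale called 1, against 135 of all 363 loci. With TMM, edgeR called 0 Val loci and 0 of all 363 loci. DESeq2 with its own size factors called 0 Val loci and 1 of all 363 loci, with 19 of 28 Val loci at an unadjusted p under 0.05. In these last 2 fits, which do not use the spike-ins, the median log2 change was 2.34 and 2.99 over Val loci. Over all loci it was -0.57 and -0.21. In 0 of 28 Val loci did both UF-dFBS samples lie below both FBS samples, where 50.1% of all loci did. This comparison leaves out the serum pairing. FBS-1 held 71.0 times the Val total of FBS-2, against 11.8 times for all other tRNA together and 119 times for tRNA-His. UF-dFBS-1 had to fall by more than the Val gap to lie below FBS-2. In the Gibco pair all 28 Val loci were lower in UF-dFBS-2, with ratios of at most 0.362. With the serum as replicate block, which pairs each UF-dFBS sample with the FBS sample of its serum, 5 of 28 Val loci fell, against 66.1% of all 322 loci tested. They were tRNA133-ValCAC with a log2 change of -5.88 ± 1.84 (SE, edgeR adjusted p = 0.0036), tRNA37-ValAAC with -4.54 ± 1.79 (0.021), tRNA15-ValAAC with -4.12 ± 1.72 (0.029), tRNA6-ValTAC with -3.68 ± 1.25 (0.0070) and tRNA115-ValAAC with -3.12 ± 1.18 (0.016). All are among the 8 loci named above, which is no separate result, as the fit holds the UF-dFBS-1 and FBS-1 samples that formed that group. The 15 high loci had log2 changes of -1.07 to -0.87 with SEs of at least 2.14, and 0 of 15 passed. The median change was -1.03 over the 28 Val loci and -3.66 over all loci. Of the tRNA-Gly loci 9 of 26 fell, of the tRNA-His loci 1 of 10, and of the tRNA-Glu, Gln and Lys loci 17 of 43. The share of calls was thus lower in Val than over all loci, and the SEs of the abundant loci were large.

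Ultracentrifugation went with opposite changes in the 2 sera. The UC-dFBS to FBS ratio of the Val total was 0.645 in the Sigma serum and 5.51 in the Gibco serum. All other tRNA had 0.682 and 2.01, tRNA-His 0.642 and 7.86, and miRNA 0.185 and 0.231. The 3 anticodons had similar ratios, with 0.664, 0.675 and 0.517 for AAC, CAC and TAC in the Sigma serum and 5.50, 5.57 and 5.26 in the Gibco serum. By edgeR 0 of 28 Val loci passed, with and without the replicate block (0 at an unadjusted p under 0.05 without and 1 with it; 0% of all loci were called without it and 2.48% with it), and DESeq2 called 0. UC-dFBS and FBS samples overlapped in 28 of 28 Val loci, where they were apart in 0.551% of all loci with UC-dFBS higher and in 19.3% with UC-dFBS lower. The overlap was counted without the serum pairing. The log2 difference of the Val totals was 0.91 (exact permutation test, two-sided, p = 1), and the direction changed when FBS-2 (-2.16) or UC-dFBS-1 (-0.61) was left out.

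The commercial depleted serum had the highest Val totals of the media, 48425 and 99524 in the lots against 42511 and 599 in FBS. The samples did not overlap (log2 difference 3.78, exact permutation test, two-sided, p = 0.333, the smallest possible), and the difference fell to 0.71 without FBS-2. Of 28 Val loci 19 were higher in both lots than in both FBS samples, where 22.3% of all loci tested were, and 0 were lower, where 5.23% were. These 19 were the 15 high loci with tRNA40-ValTAC, tRNA13-ValCAC, tRNA152-ValCAC and tRNA157-ValCAC, named after their values had been seen, so that 4 of the 13 loci outside the high set were among them. By edgeR 0 of 28 passed (0% of 363 loci, 0 Val loci at an unadjusted p under 0.05, and 0 by DESeq2), with a median log2 difference of 1.80 over Val loci and 1.111 over all loci.

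StemPRO held little tRNA-Val, a total of 3.93, of which AAC had 1.13, CAC 1.93 and TAC 0.870. No Val locus exceeded 1 spike-in normalized count there, where between 16 and 28 loci did in each FBS-based sample. AAC had 122 counts (28.7% of Val, Wilson 95% interval 24.6 to 33.2%), CAC 209 (49.2%, 44.5 to 53.9%) and TAC 94 (22.1%, 18.4 to 26.3%). The AAC share lay below the range of the FBS-based samples (38.6 to 45.6%), the CAC share lay within it (42.3 to 51.2%), and the interval of the TAC share held that of SBI-dFBS-2 (19.1%). The locus with the highest count was tRNA13-ValCAC (chr19:4724647-4724719), with 51 of the 425 Val counts, followed by tRNA16-ValTAC with 28. tRNA133-ValCAC, with 70 or more counts in both FBS samples, had 0, and 3 counts would correspond to 0.0278. With 1 library, no test was made.

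Over the 9 samples, the isoacceptors whose totals were most like those of AAC were CAC (Pearson r = 0.9999 of log2 totals), TAC (0.980) and LysTTT (0.970), out of 49 isoacceptors. For CAC they were AAC, TAC (0.981) and LysTTT (0.971). For TAC they were LysTTT (0.988), CAC and AAC. These values describe 9 libraries that share sera, depth and scaling, and carry no test. In the FBS-based samples the AAC and CAC totals come mostly from the 15 near-equal loci. As the placing of reads that match several genes is not known, these 2 totals cannot be read as separate measurements. The log2 ratio of CAC to AAC moved little with serum (Sigma minus Gibco -0.01, exact permutation test, p = 0.5) and with ultrafiltration (0.01 against the other FBS-based samples, exact permutation test, p = 0.286), and that of TAC to AAC by -0.08 (p = 1, exact permutation test) and -1.35 (p = 0.143, exact permutation test). The last value was -0.68 without UF-dFBS-1 and -2.01 without UF-dFBS-2, and the difference by serum was 0.69 without UF-dFBS-1.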

How the data were processed

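RNA of 9 media samples was sequenced with a kit that adds unique molecular indices. Reads were trimmed by the authors (cutadapt 1.11), collapsed by index and mapped with Bowtie2 2.2.2 to human GRCh37. The deposited counts are such reads per locus, not normalized. The second deposited table holds a spike-in normalized signal, made by the authors by dividing counts by a factor per sample from external spike-ins. The factor was checked and was constant within each sample. The spike-ins are of miRNA size, the error of the factor was not analysed here, and it scales all loci of a sample alike.

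Here, counts were tested with edgeR 4.0.16 in R 4.3.3 (quasi-likelihood test, spike-in factor as library size, Benjamini-Hochberg adjusted p threshold 0.05). The SE given with an edgeR log2 difference is the size of that difference divided by the square root of its F statistic. It was derived from the test and is no separate estimate of the spread. The medium fit held the 8 FBS-based samples and loci with at least 10 counts in 2 samples. The serum fit held the 6 samples of the Sigma and Gibco sera, with the medium as a term and at least 10 counts in 3 samples. Single values were tested by exact two-sided permutation over all arrangements, a computation checked on random values against scipy 1.17.1. DESeq2 1.42.0, TMM, no filter, other totals and leaving out each library were the alternatives. The scripts were tested on simulated data. Shares carry Wilson 95% intervals, and ratios exact counting intervals. Total counts were 82513 to 6867736 in FBS-based samples and 6679 in StemPRO.

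The replicate numbers of FBS, UC-dFBS and UF-dFBS pair samples because the study prepared the depleted sera from the same 2 sera. Differences between sample 1 and sample 2, per locus over 363 loci, correlated by 0.759 (FBS and UC-dFBS), 0.604 (FBS and UF-dFBS) and 0.574 (UC-dFBS and UF-dFBS), and by -0.564 to -0.416 with SBI-dFBS, which does not share them.

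Loci were named by rule: the 3 highest of each anticodon, up to 5 called loci per edgeR comparison by size, the highest in StemPRO, and the 3 that departed most from their anticodon after ultrafiltration. Others are marked as named after their values were seen, or are given to account for all 31. Members, lists and rule were chosen with earlier results of these data known. Each sample is its own preparation as far as the labels say, so that p-values measure the spread between these samples. Sequences of the loci were not used here.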

Additional observations from a re-analysis of the deposited data

Results flagged for a closer look

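The change of tRNA-Val from FBS to UC-dFBS went in opposite directions in the 2 sera, lower in the Sigma serum and higher in the Gibco serum. The log2 ratio in the Sigma serum minus that in the Gibco serum was -3.09 for the Val total, -3.05 for AAC, -3.04 for CAC, -3.35 for TAC and -1.51 for the share of Val in tRNA counts. With 1 sample per medium and serum, this difference was not tested. StemPRO, which entered no comparison, held 425 Val counts, above the 3 counts taken as the floor.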

How the results depend on the processing

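Of 189 alternative values of 18 results, 163 kept their direction and their side of the threshold. Some of these could not change, so the count is no measure of stability. No pair of Val loci had identical counts, so counting identical loci once repeated the main value. The exact permutation tests of 2 against 2, 2 against 6 and 3 against 3 samples could not pass the threshold, with smallest p of 0.333, 0.0714 and 0.1. The order of anticodons changed with some summaries. With the highest locus in place of the total, the log2 ratios were -0.025 for CAC to AAC, 0.28 for TAC to AAC and 0.30 for TAC to CAC. With the mean per locus they were -0.29 for CAC to AAC, -0.70 for TAC to CAC and -0.99 for TAC to AAC, the last still past the threshold. The mean per locus divides a total by a fixed number of loci, so it shifts the ratio of every sample alike. The Sigma minus Gibco difference with the highest locus was 0.018 for CAC to AAC and 0.14 for TAC to AAC, the latter between -0.56 and 0.69 with 1 library left out. The serum calls went from 27 to 2 with TMM, 0 without the medium term and between 1 and 27 with 1 library left out. For UF-dFBS against FBS, 0 calls became 1 with DESeq2 on the spike-in scale and 5 with the replicate block, which changed no call for UC-dFBS. The UF-dFBS minus FBS difference of the Val total was 1.56 as a ratio to other tRNA, 0.51 in raw counts, 1.56 as a share of all counts, and between -6.95 and 2.76 with 1 library left out. Against the other FBS-based media it was 0.60 as a share of all counts and between -8.51 and 1.20 with 1 library left out, the Val share between -1.78 and 3.17, and the TAC to AAC ratio between -2.01 and -0.68. For UC-dFBS against FBS it was between -2.16 and 3.99. The cause of these shifts was not tested. UF-dFBS-2 and StemPRO, with 983 and 425 Val counts, limit the precision of single loci.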
